A study of Mus musculus with 8 samples.

Results

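Expression of 9 osteoclast genes (Acp5, Ctsk, Nfatc1, Tnfrsf11a, Ocstamp, Dcstamp, Oscar, Calcr and Atp6v0d2) was examined in bone marrow-derived macrophages (BMDMs) of LysM and K2KO mice. They were taken by name as genes of osteoclast differentiation and cell fusion, and all 9 were among the 23761 genes of the expression table. BMDMs came from 4 LysM mice, which are LysM Cre/Cre, and 4 K2KO mice, which are LysM Cre/Cre with KLF2 flox/flox, all C57BL/6J and 3 months of age. Controls and knockouts thus share the same Cre, which is driven by the lysozyme M gene and is active in granulocytes as well as macrophages. Flushed marrow of the long bones was grown for 6 days in DMEM with L929-conditioned medium, a source of the growth factor M-CSF, and the libraries are marked as vehicle. No treatment with RANKL is named for these cells. One library of total RNA was sequenced for each mouse, and p-values measure the spread between these libraries.

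Levels are given in FPKM, fragments counted per kilobase of transcript and relative to the size of the library. FPKM are adjusted for transcript length, so levels are set side by side between genes, with the limit that a listed value may understate a gene. Gapdh, for example, was listed at 0 to 0.4999 FPKM. FPKM also do not keep how many reads stand behind a value. The columns of the table show the genotype and a number from 0 to 3 and are named here LysM0 to LysM3 and K2KO0 to K2KO3. Summed FPKM were between 497253 and 551608 in LysM libraries and between 448235 and 501965 in K2KO libraries. Steps among the lowest values placed the depth at 0.969 to 1.23 times that of LysM0 in the other LysM libraries and at 0.895 to 1.32 times in the K2KO libraries. Differences were tested with limma on log2(FPKM + 0.1) for the 10920 genes with a mean of at least 1 FPKM, and p-values were adjusted over all of them by the Benjamini-Hochberg method. Genes with an absolute log2 fold change over 0.26 and an adjusted p under 0.05 were called differentially expressed. A fold change on this scale is a difference between means of log2 values, so it is not the log2 of the ratio of mean FPKM, and the added 0.1 understates the change of genes with low FPKM.

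Klf2, the floxed gene (ENSMUSG00000055148.7, chr8:72319033-72321656 of GRCm38, plus strand), was measured first. Its levels were 44.1, 52.9, 64.7 and 72.8 FPKM in LysM0 to LysM3, and 45.5, 41.6, 59.2 and 59.3 FPKM in K2KO0 to K2KO3. The genotypes overlapped, and the log2 fold change of -0.18 (SE 0.17, limma adjusted p = 0.460) did not pass the test. FPKM of a whole gene do not tell which exons the reads cover. Directions are therefore given for "the libraries labelled K2KO".

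Osteoclasts are multinucleated bone-resorbing cells that form from cells of the macrophage lineage when M-CSF and RANKL act together. RANKL binds its receptor RANK, signals through TRAF6 and, with costimulation from receptors that use ITAM adaptors, turns on the transcription factor NFATc1. NFATc1 then drives the genes of fusion and resorption. The 9 genes cover these steps. Tnfrsf11a encodes RANK, Oscar encodes a costimulatory receptor, Nfatc1 encodes the master transcription factor, Dcstamp and Ocstamp encode membrane proteins needed for fusion, Atp6v0d2 encodes a proton pump subunit that also takes part in fusion, Acp5 and Ctsk encode the enzymes TRAP and cathepsin K, and Calcr encodes the calcitonin receptor of mature osteoclasts.

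Promoter sequence was matched by symbol for 5 of the 9 genes (Tnfrsf11a, Ctsk, Calcr, Oscar and Acp5) in RefSeq on GRCm38.p6, as windows from 250 bases before to 50 after a start. Tnfrsf11a is printed as the receptor gene and as an example of the letters at the core of KLF binding, which the 2 Calcr and 3 Acp5 windows hold too (1 to 3 matches each), and Ctsk and Oscar because both hold NFAT and PU.1 letters while their levels lie far apart. Capitals mark matches on either strand to CACCC (KLF), GGAAA (NFAT) or GAGGAA (PU.1), and the last pair can overlap.
Tnfrsf11a, chr1:105780473-105780772, plus strand: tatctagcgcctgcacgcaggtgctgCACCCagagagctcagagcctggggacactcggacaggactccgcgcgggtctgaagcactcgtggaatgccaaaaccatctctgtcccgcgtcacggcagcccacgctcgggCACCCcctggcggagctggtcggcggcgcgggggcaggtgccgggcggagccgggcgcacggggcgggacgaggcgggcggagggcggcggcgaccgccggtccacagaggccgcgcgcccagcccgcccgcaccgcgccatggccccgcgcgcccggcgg
Ctsk, chr3:95498960-95499259, plus strand: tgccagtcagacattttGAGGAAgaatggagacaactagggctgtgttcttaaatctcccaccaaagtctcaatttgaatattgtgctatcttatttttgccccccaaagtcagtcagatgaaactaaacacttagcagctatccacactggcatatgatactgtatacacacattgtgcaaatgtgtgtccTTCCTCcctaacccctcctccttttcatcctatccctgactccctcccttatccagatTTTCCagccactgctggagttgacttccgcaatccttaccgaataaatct
Oscar, chr7:3616108-3616407, minus strand: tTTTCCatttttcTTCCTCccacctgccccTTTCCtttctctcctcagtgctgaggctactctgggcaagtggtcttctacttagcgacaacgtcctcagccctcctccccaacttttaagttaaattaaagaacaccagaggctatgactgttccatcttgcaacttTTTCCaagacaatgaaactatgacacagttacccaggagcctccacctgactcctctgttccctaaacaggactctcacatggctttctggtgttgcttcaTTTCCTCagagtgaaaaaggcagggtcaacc
The Tnfrsf11a window held 2 CACCC matches and no GGAAA or GAGGAA, in a sequence of 76.7% GC with 43 CG pairs. The Ctsk window held 1 GGAAA and 2 GAGGAA and no CACCC, at 43.7% GC. The Oscar window held 4 GGAAA and 2 GAGGAA and no CACCC, at 47.3% GC. No TGANTCA (AP-1) or TCACGTG (MITF) stood in any of the 3. Such letters are common: of 32851 promoter windows of this length, 57.5% held CACCC, 61.3% GGAAA, 28.3% GAGGAA, 7.81% TGANTCA and 3.77% TCACGTG. A match describes the letters and not a bound site.

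The 9 genes fell into a clearly expressed group of 6 and a group of 3 at or near 0. Atp6v0d2 had the highest level, with a mean of 92.1 FPKM over the 8 libraries, and was followed by Ctsk at 37.0, Acp5 at 31.9, Nfatc1 at 11.9, Tnfrsf11a at 10.5 and Dcstamp at 2.14 FPKM. Atp6v0d2 stood at rank 897 of the 23761 listed genes and Dcstamp at rank 9607. Oscar (0.0333 FPKM), Ocstamp (0.0137 FPKM) and Calcr (listed at 0) stayed under a mean of 1 FPKM and were not in the limma comparison. Neighbours in this order were not all apart. Ctsk exceeded Acp5 in 6 of 8 libraries and Nfatc1 exceeded Tnfrsf11a in 7 of 8, with overlapping ranges, whereas the steps from Atp6v0d2 to Ctsk, from Acp5 to Nfatc1, from Tnfrsf11a to Dcstamp and from Dcstamp to Oscar held in 8 of 8 libraries with ranges apart. The label "osteoclast differentiation genes" thus met cells in which genes of the RANK, NFATc1 and lysosomal steps were measured and the calcitonin receptor was listed at 0.

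**Figure D1:**
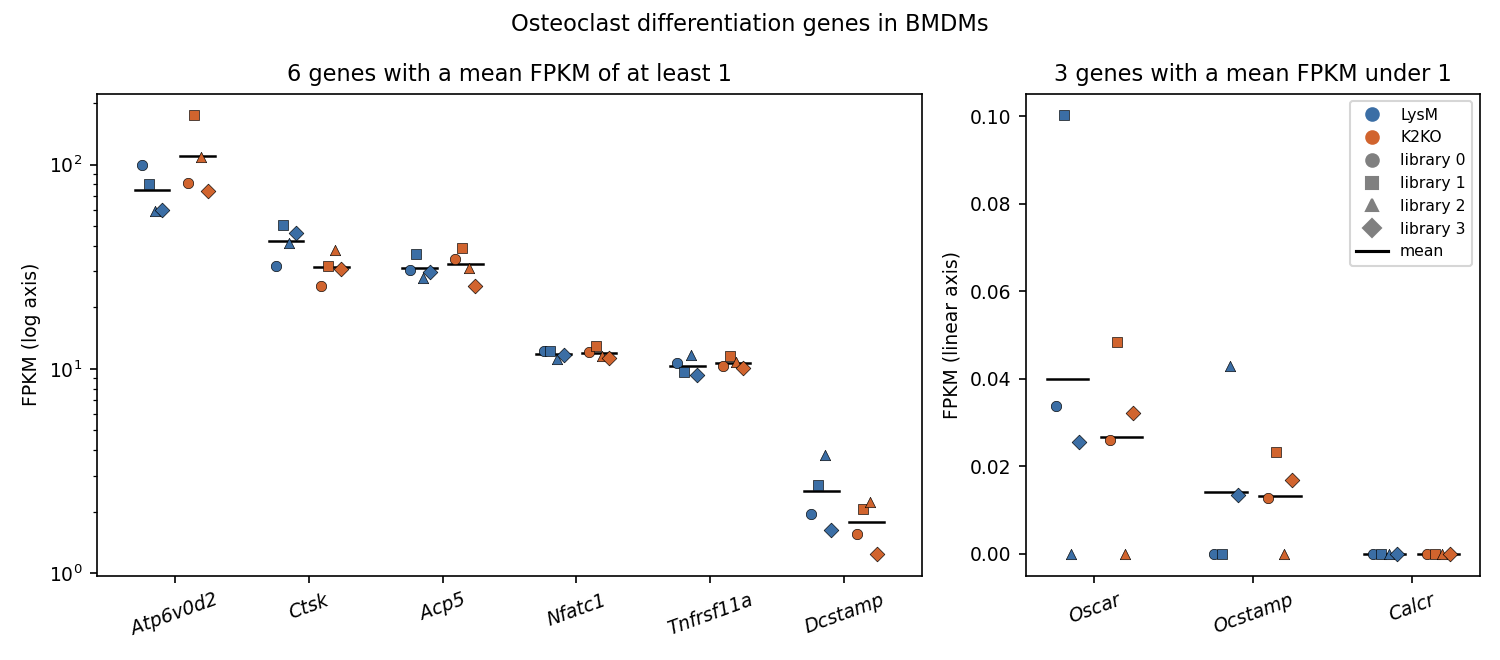
FPKM of the 9 genes in each library, on a log axis for the 6 genes with a mean of at least 1 FPKM (left) and on a linear axis for the other 3 (right), with blue LysM points, orange K2KO points, marker shape for the library number and a bar at each mean. LysM and K2KO points overlap for every gene, Atp6v0d2 spreads from 59.5 to 174 FPKM, and Calcr lies at 0 in all 8 libraries.

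None of the 6 tested genes was differentially expressed, where 2014 of all 10920 tested genes (18.4%) were. Higher calls under the K2KO label made up 9.84% of the tested genes and lower calls 8.61%. Without adjustment, 1 of the 6 (Ctsk) had a limma p under 0.05, against 37.8% of all tested genes. None of the 6 had genotypes that did not overlap, against 23.1% of tested genes. The mean log2 level was higher in the libraries labelled K2KO for 4 genes and lower for 2, and the median log2 fold change was 0.033 beside 0.011 for all tested genes. With so few genes these shares are descriptive. Exact two-sided permutation tests were run for the 8 genes above 0 and left unadjusted, and 4 against 4 libraries cannot give a p below 0.0286. In whole cultures, fewer cells of a type and less RNA per cell cannot be told apart.

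Cathepsin K is the collagen-cleaving protease of the resorption pit. Ctsk (ENSMUSG00000028111.4, chr3:95499256-95509362, plus strand, 8 exons in the longest transcript) was at 31.7, 50.5, 41.4 and 46.3 FPKM in LysM0 to LysM3, and at 25.4, 31.8, 38.3 and 30.7 FPKM in K2KO0 to K2KO3. LysM0 lay among the libraries labelled K2KO, and the other 3 LysM libraries lay above all of these. The means were 42.5 ± 8.07 and 31.5 ± 5.29 FPKM (SD, n = 4 each), a ratio of 0.743. The log2 fold change was -0.42 (SE 0.16, 95% interval -0.78 to -0.06) with a limma adjusted p = 0.0850 and an exact permutation p = 0.0857, so it did not pass. It passed without LysM0 (log2 fold change -0.55, limma adjusted p = 0.0256), where 21.4% of all tested genes passed, and the adjusted p was between 0.0781 and 0.214 when any other library was left out. Ctsk also passed with the column number as a block in the fit (limma adjusted p = 0.0375), though no label says that these numbers pair the libraries.

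TRAP is the acid phosphatase whose staining is used to recognise osteoclasts. Acp5 (ENSMUSG00000001348.14, chr9:22126727-22135711, minus strand, 6 exons) was at 30.3, 36.3, 28.0 and 29.8 FPKM in the LysM libraries, and at 34.6, 39.2, 31.1 and 25.4 FPKM in the K2KO libraries, in the order 0 to 3. K2KO libraries held both the highest and the lowest value. The means were 31.1 ± 3.63 and 32.6 ± 5.81 FPKM (SD, n = 4 each). The log2 fold change of 0.055 (SE 0.13, 95% interval -0.24 to 0.35, limma adjusted p = 0.785, exact permutation p = 0.714) did not pass the test and was -0.039 without K2KO1.

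The d2 subunit belongs to the membrane sector of the vacuolar proton pump (V-ATPase), which acidifies lysosomes and the resorption pit. Atp6v0d2 (ENSMUSG00000028238.6, chr4:19876841-19922605, minus strand, 8 exons) was at 99.0, 80.1, 59.5 and 59.9 FPKM in LysM0 to LysM3, and at 81.0, 174, 109 and 73.9 FPKM in K2KO0 to K2KO3. K2KO1 and K2KO2 stood above every LysM library, and K2KO0 and K2KO3 stood within the LysM range. The means were 74.6 ± 18.9 and 109 ± 45.6 FPKM (SD, n = 4 each), a ratio of 1.47. The log2 fold change was 0.50 (SE 0.27, 95% interval -0.11 to 1.11, limma adjusted p = 0.199, exact permutation p = 0.200), which did not pass. It was 0.25 without K2KO1 (limma adjusted p = 0.427).

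Atp6v0d1, which encodes the widely expressed d1 form of the same subunit, gave a reference for the pump. It was at 147 ± 3.63 FPKM in LysM and 136 ± 11.4 FPKM in K2KO libraries (SD, n = 4 each, log2 fold change -0.11, limma adjusted p = 0.269), and this difference turned to 0.061 with quantile normalization and to 0.0055 with correction for GC content and length. The ratio of d2 to d1 FPKM was 0.658, 0.536, 0.416 and 0.416 in LysM0 to LysM3, and 0.665, 1.23, 0.821 and 0.499 in K2KO0 to K2KO3. K2KO1 was the one library in which the d2 form exceeded the d1 form.

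RANK is the receptor for RANKL on osteoclast precursors. Tnfrsf11a (ENSMUSG00000026321.7, chr1:105780718-105847981, plus strand, 10 exons) was at 10.6, 9.68, 11.7 and 9.30 FPKM in LysM0 to LysM3, and at 10.3, 11.6, 10.8 and 10.1 FPKM in K2KO0 to K2KO3. All K2KO values lay within the LysM range. The means were 10.3 ± 1.06 and 10.7 ± 0.663 FPKM (SD, n = 4 each). The log2 fold change of 0.052 (SE 0.08, 95% interval -0.13 to 0.24, limma adjusted p = 0.664, exact permutation p = 0.571) did not pass the test and was -0.054 with correction for GC content and length.

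NFATc1 is the transcription factor on which osteoclast formation depends. Nfatc1 (ENSMUSG00000033016.15, chr18:80606205-80713071, minus strand, 8 exons) was at 12.2, 12.2, 11.2 and 11.6 FPKM in LysM0 to LysM3, and at 12.1, 12.9, 11.5 and 11.2 FPKM in K2KO0 to K2KO3. All 8 values lay close together. The means were 11.8 ± 0.523 and 11.9 ± 0.748 FPKM (SD, n = 4 each). The log2 fold change of 0.014 (SE 0.063, limma adjusted p = 0.885, exact permutation p = 0.83) had the narrowest 95% interval of the 6 genes, -0.13 to 0.16, and its sign turned in 2 of 12 alternative settings.

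OSCAR is a collagen-binding costimulatory receptor that signals through an ITAM adaptor. Oscar (ENSMUSG00000054594.13, chr7:3609813-3616157, minus strand, 5 exons) was at 0.0338, 0.1002, 0 and 0.0255 FPKM in LysM0 to LysM3, and at 0.0261, 0.0483, 0 and 0.0322 FPKM in K2KO0 to K2KO3. It was above 0 in 6 of 8 libraries, with 1 library of each genotype at 0 (exact permutation p = 0.686). Scaled by relative depth, the values lay within 0.0595 of 1, 2 or 3 times a common step, and these steps summed to 9 over all libraries. At such levels no difference was detectable, whereas Ctsk, whose promoter window holds the same 2 kinds of letters, reached 50.5 FPKM.

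DC-STAMP and OC-STAMP are related multipass membrane proteins without which osteoclast precursors stay mononuclear. Dcstamp (ENSMUSG00000022303.8, chr15:39745930-39760938, plus strand, 4 exons) was at 1.95, 2.71, 3.79 and 1.62 FPKM in LysM0 to LysM3, and at 1.55, 2.06, 2.23 and 1.24 FPKM in K2KO0 to K2KO3. LysM1 and LysM2 stood above all K2KO libraries, and the rest overlapped. The means were 2.52 ± 0.962 and 1.77 ± 0.455 FPKM (SD, n = 4 each), a ratio of 0.703. The log2 fold change was -0.45 (SE 0.27, 95% interval -1.05 to 0.16, limma adjusted p = 0.246, exact permutation p = 0.229), which did not pass, and it was -0.23 without LysM2. Dcstamp passed with the column number as a block in the fit (limma adjusted p = 0.0442), though no label says that these numbers pair the libraries.

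Ocstamp (ENSMUSG00000027670.4, chr2:165393760-165400405, minus strand, 3 exons) was at 0, 0, 0.0429 and 0.0136 FPKM in LysM0 to LysM3, and at 0.0127, 0.0232, 0 and 0.0169 FPKM in K2KO0 to K2KO3. It was above 0 in 5 of 8 libraries, where scaled values lay as far as 0.248 from a whole multiple of their step, and no difference was detectable (exact permutation p = 0.914). Calcr (ENSMUSG00000023964.15, chr6:3685680-3764714, minus strand, 16 exons) was listed at 0 in all 8 libraries and could not be compared. Gapdh, which every cell uses, was itself listed at 0 to 0.4999 FPKM, so no transcript was taken as absent from a listed 0.

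**Figure D2:**
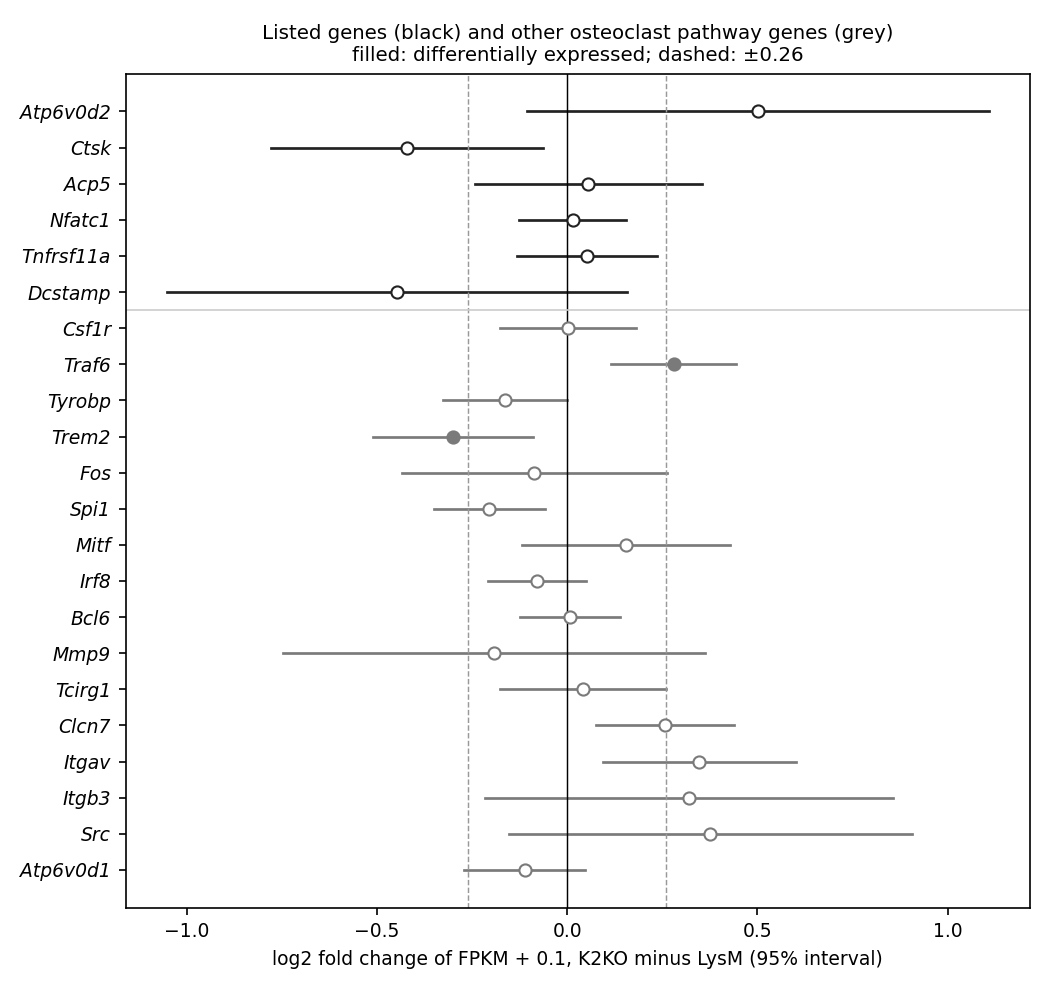
Log2 fold change of FPKM + 0.1 (K2KO minus LysM) with its 95% interval for the 6 tested genes (black) and 16 other genes of osteoclast formation (grey), with filled points for differential expression and dashed lines at 0.26 in either direction. The interval of Nfatc1 is the narrowest and that of Atp6v0d2 the widest of the 6, and among all points shown only Traf6 and Trem2 are filled.

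The 6 genes differed in how much they varied between mice of one genotype. The SD of log2 levels within genotypes was 0.466 for Atp6v0d2 and 0.448 for Dcstamp, at percentiles 95.6 and 95.2 of the tested genes. It was 0.267 for Ctsk and 0.219 for Acp5, and only 0.120 for Tnfrsf11a and 0.077 for Nfatc1. The percentiles are among tested genes of all levels, while Dcstamp was at a mean of only 2.14 FPKM.

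K2KO3 lay below the mean of the 8 libraries for all 6 genes, with deviations on the log2 scale between -0.67 for Dcstamp and -0.053 for Tnfrsf11a. No other library was on one side of the mean for all 6. K2KO1 exceeded the mean of the 8 libraries by 1.00 on the log2 scale for Atp6v0d2 and by 0.31 for Acp5 but had a deviation of -0.19 for Ctsk. LysM2 exceeded the mean by 0.87 for Dcstamp and had a deviation of -0.54 for Atp6v0d2. K2KO0 was low for Ctsk, at -0.50. Deviations of Nfatc1 stayed between -0.09 and 0.12.

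**Figure D3:**
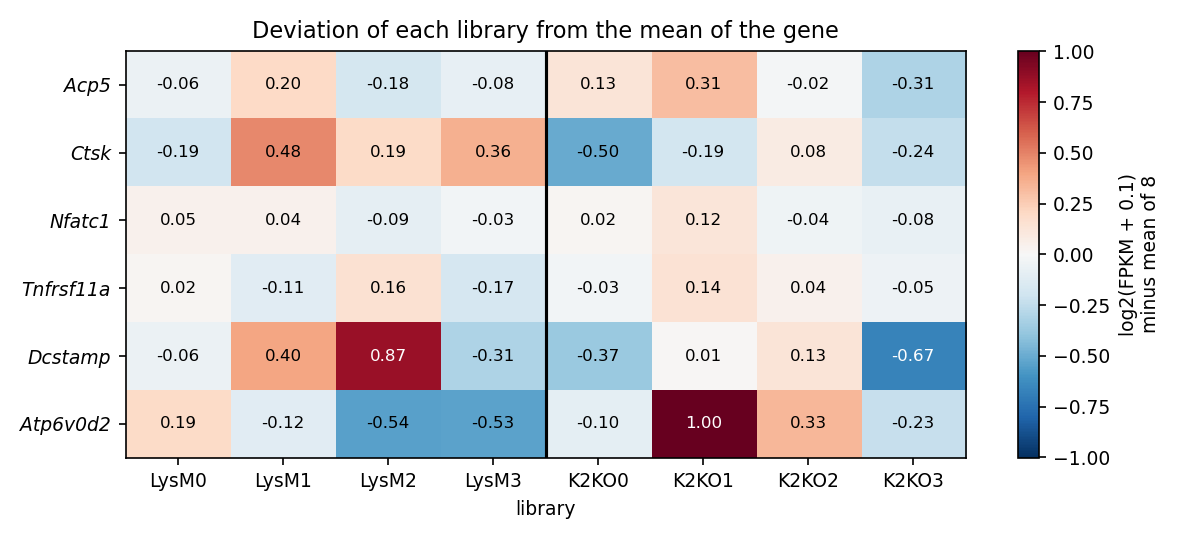
Deviation of log2(FPKM + 0.1) in each library from the mean of the 8 libraries, for the 6 tested genes, with red for higher, blue for lower and a black line between the genotypes. Atp6v0d2 in K2KO1 (1.00) and Dcstamp in LysM2 (0.87) stand out, and the Nfatc1 values are all within 0.12 of 0.

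The genes with the most similar pattern over the 8 libraries were found by the root mean square difference between centred log2 profiles. For Atp6v0d2 they were Taf9b (0.11), which encodes a subunit of the general transcription machinery, and Mmp12 (0.12), which encodes macrophage elastase. Mmp12 was at 452 FPKM in K2KO1 and between 200 and 325 FPKM in the other 7 libraries. For Ctsk they were Hmgb1-ps5 (0.077) and the DNA repair gene Xpa (0.099), and Hmgb1-ps5 is a processed pseudogene inside Ctss, the neighbour of Ctsk, so its reads are uncertain. For Acp5 they were Zfp12 (0.045) and Myadm (0.074), for Nfatc1 Abl1 (0.020) and Prr14 (0.028), and for Tnfrsf11a Pip4k2a (0.036) and Sept2 (0.038). Nothing came as near to Dcstamp, with Trim16 at 0.20 and Gm20492 at 0.23. The profiles were not scaled to the spread of each gene, so these differences tend to be larger for genes that vary more. None of these 12 genes was differentially expressed, which follows largely from choosing them for their likeness to genes that did not pass. The likeness rests on 8 libraries that each gene shares with the other.

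The rest of the pathway was followed in 8 lists, which share genes with each other and include the 9. Of their 178 genes in the table, 151 were tested and 20 (13.2%, beside 18.4% of all tested genes) were differentially expressed. The median log2 fold change was 0.0098, and of the 20 genes 14 were higher under the K2KO label and 6 lower. This split depended on scaling, with 18 higher and none lower under quantile normalization, 23 higher and 4 lower under upper-quartile scaling, and 5 higher and 8 lower with correction for GC content and length. Those settings called 14.0%, 19.1% and 9.59% of all tested genes. Of the 20 genes, 8 also passed with the GC and length correction (Cd200r1, Cd81, Fcer1g, Id2, Pirb, Snx10, Tfec and Trem2), 12 under quantile normalization and 4 under both (Cd200r1, Id2, Snx10 and Tfec). With a library left out, Cd81, Cyld and Snx10 passed in 8 of 8 fits, Ppp3cb in 7, Cd44 and Id2 in 6, Mef2a in 5, Cd200r1, Ikbkg and Tfec in 4, and the other 10 genes in 1 to 3. Among all tested genes, 53.3% of the calls were higher, against 54.4% under quantile normalization, 64.1% under upper-quartile scaling and 45.3% with the GC and length correction. Leaving out 1 library gave 3 (without LysM3) to 36 (without K2KO3) calls in the lists, and 3.09% to 26.0% of all tested genes for the same libraries.

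Of 36 tested genes of RANK and co-receptor signalling, 3 were higher and 3 lower (16.7%, beside 18.4% of all tested genes), with a median log2 fold change of 0.0019. Traf6, the adaptor that RANK recruits, rose from 4.12 ± 0.142 to 5.03 ± 0.403 FPKM (SD, n = 4 each, log2 fold change 0.28, limma adjusted p = 0.0296). Ikbkg, the scaffold subunit of the IKK complex, rose by 0.42, and Ppp3cb, a catalytic subunit of the phosphatase calcineurin, by 0.29. With correction for GC content and length, Traf6, Ikbkg and Ppp3cb were at 0.11, 0.23 and 0.09 and did not pass. Traf6 did not pass under quantile normalization either (0.18). It passed in 6 of 12 alternatives and in 2 of 8 fits with a library left out.

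The 3 genes that were lower encode an adaptor and receptors of costimulation or its inhibition. Fcer1g, the adaptor through which OSCAR signals, fell from 2976 ± 290.5 to 2242 ± 268 FPKM (SD, n = 4 each, log2 fold change -0.41, limma adjusted p = 0.0305). It was at -0.050 and did not pass under quantile normalization, and passed in 7 of 12 alternatives and in 2 of 8 fits with a library left out. Trem2, a receptor that signals through DAP12, changed by -0.30 (limma adjusted p = 0.0493) but was at 0.0074 under quantile normalization and passed in 2 of 12 alternatives. Pirb, an inhibitory receptor whose reads may be shared with the Pira genes, changed by -0.42 and did not pass under quantile normalization (-0.30). Tyrobp, which encodes DAP12, was at 2813 ± 153 and 2512 ± 102 FPKM (SD, n = 4 each, log2 fold change -0.16, limma adjusted p = 0.134), and its sign turned under quantile normalization (0.17). Csf1r, the M-CSF receptor, was at 524 ± 15.5 and 526 ± 53.2 FPKM (SD, n = 4 each, limma adjusted p = 0.989), and Siglec15, an ITAM-coupled receptor of osteoclasts, was listed at 0.

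Of 22 tested transcription factors of osteoclasts, 2 were higher and 1 lower (13.6%, beside 18.4% of all tested genes). Tfec, a relative of MITF, rose from 2.30 ± 0.368 to 4.10 ± 0.889 FPKM (SD, n = 4 each, log2 fold change 0.80, limma adjusted p = 0.0203) and passed in 9 of 12 alternatives and in 4 of 8 fits with a library left out, and Mef2a rose by 0.43. Jund, an AP-1 subunit, changed by -0.57 (limma adjusted p = 0.0352), with genotypes that overlapped. With correction for GC content and length Mef2a was at 0.22 and Jund at -0.19, and neither passed. Jund did not pass under quantile normalization either (-0.39), and passed in 2 of 8 fits with a library left out. Spi1, which encodes PU.1, was at 243 ± 9.71 and 211 ± 12.9 FPKM (SD, n = 4 each, log2 fold change -0.20, limma adjusted p = 0.0530), and was at 0.0036 under quantile normalization. Fos, Junb and Mitf did not pass (log2 fold changes -0.09, -0.18 and 0.15).

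Among repressors of osteoclast formation, 3 of 21 tested genes (14.3%) were higher and none lower, where 9.84% of all tested genes were higher and 8.61% lower. Id2, an inhibitor of helix-loop-helix factors, rose from 224 ± 26.2 to 368 ± 74.0 FPKM (SD, n = 4 each, log2 fold change 0.70, limma adjusted p = 0.0171) and passed in 10 of 12 alternatives. Cyld, a deubiquitinase that acts on TRAF6, rose by 0.45, and Tnfaip3, which encodes A20, by 0.35. With correction for GC content and length Cyld was at 0.24 and Tnfaip3 at 0.21 and neither passed, and Tnfaip3 passed in 3 of 8 fits with a library left out. The transcriptional repressors Irf8 (106 and 100.2 FPKM) and Bcl6 (29.1 and 29.3 FPKM) did not pass, nor did Id3 or Cebpb. Irf8 overlaps another listed gene on its strand, so its level is uncertain.

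Of 24 tested fusion genes, Dcstamp and Atp6v0d2 included, 3 were higher and 1 lower (16.7%, beside 18.4% of all tested genes). Snx10, a sorting nexin needed for osteoclast acid secretion, rose from 15.1 ± 2.16 to 22.5 ± 1.67 FPKM (SD, n = 4 each, log2 fold change 0.58, limma adjusted p = 0.0126), and passed in 11 of 12 alternatives and without any one library. Cd200r1, the receptor for CD200, rose by 0.78 (18.1 to 31.8 FPKM) and passed in 4 of 8 fits with a library left out, and Cd44, the hyaluronan receptor, rose by 0.28, though Cd44 was at 0.11 and did not pass with correction for GC content and length. Cd81, a tetraspanin, fell from 89.0 ± 3.38 to 69.5 ± 3.55 FPKM (SD, n = 4 each, log2 fold change -0.36, limma adjusted p = 0.0109), and did not pass under quantile normalization (-0.22). Sirpa, Adam8 and Cd9 did not pass.

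Of 28 tested genes of matrix degradation and acid secretion, Ctsk and Acp5 included, 2 passed (7.14%, beside 18.4% of all tested genes). These were Snx10 and Ctsl, each higher. Ctsl, which encodes cathepsin L, rose from 1219 ± 73.1 to 1507 ± 151 FPKM (SD, n = 4 each, log2 fold change 0.30, limma adjusted p = 0.0399). Ctsl was at 0.12 and did not pass with correction for GC content and length, and it passed in 1 of 8 fits with a library left out. Ctss, the neighbour of Ctsk, was at 6525 and 6147 FPKM and did not pass. Clcn7, the chloride transporter of the ruffled border, was at 46.7 ± 4.75 and 55.7 ± 3.04 FPKM (SD, n = 4 each) with a log2 fold change of 0.258, under the threshold. Tcirg1, the pump subunit that osteoclasts use, was at 362 and 371 FPKM, Mmp9 at 5.64 and 4.97 FPKM, Itgav at 9.19 and 11.7 FPKM, Itgb3 at 1.38 and 1.75 FPKM and Src at 2.16 and 2.88 FPKM, and none of these passed. Of 19 tested V-ATPase genes, only Atp6v0b passed (5.26%, beside 18.4% of all tested genes), and it was lower. Its log2 fold change of -0.30 was -0.10 and did not pass with correction for GC content and length. Atp6v0e and Atp6v1f were also among the most abundant and did not pass.

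Among the closest relatives of the 9 genes, 3 of 8 tested (37.5%, beside 18.4% of all tested genes) were higher. These were Ctsl, Nfatc3 (log2 fold change 0.30) and Calcrl, a receptor of the calcitonin family that rose from 1.65 ± 0.186 to 2.45 ± 0.308 FPKM (SD, n = 4 each, log2 fold change 0.54, limma adjusted p = 0.0238). None of the 3 passed with correction for GC content and length (0.12, 0.14 and 0.30), and Ctsl, Nfatc3 and Calcrl passed in 1, 2 and 3 of 8 fits with a library left out. Dcst1, the relative of Dcstamp, was listed at 0. Of the ligands, Tnfsf11, which encodes RANKL, was listed at 0 in all libraries except K2KO1 (0.0176 FPKM), and Tnfrsf11b, which encodes its decoy osteoprotegerin, and Il34 were listed at 0. Tgfb1, Il1b and Tnf were tested and did not pass, Tnf at a log2 fold change of 0.44 (limma adjusted p = 0.0511).

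**Figure D4:**
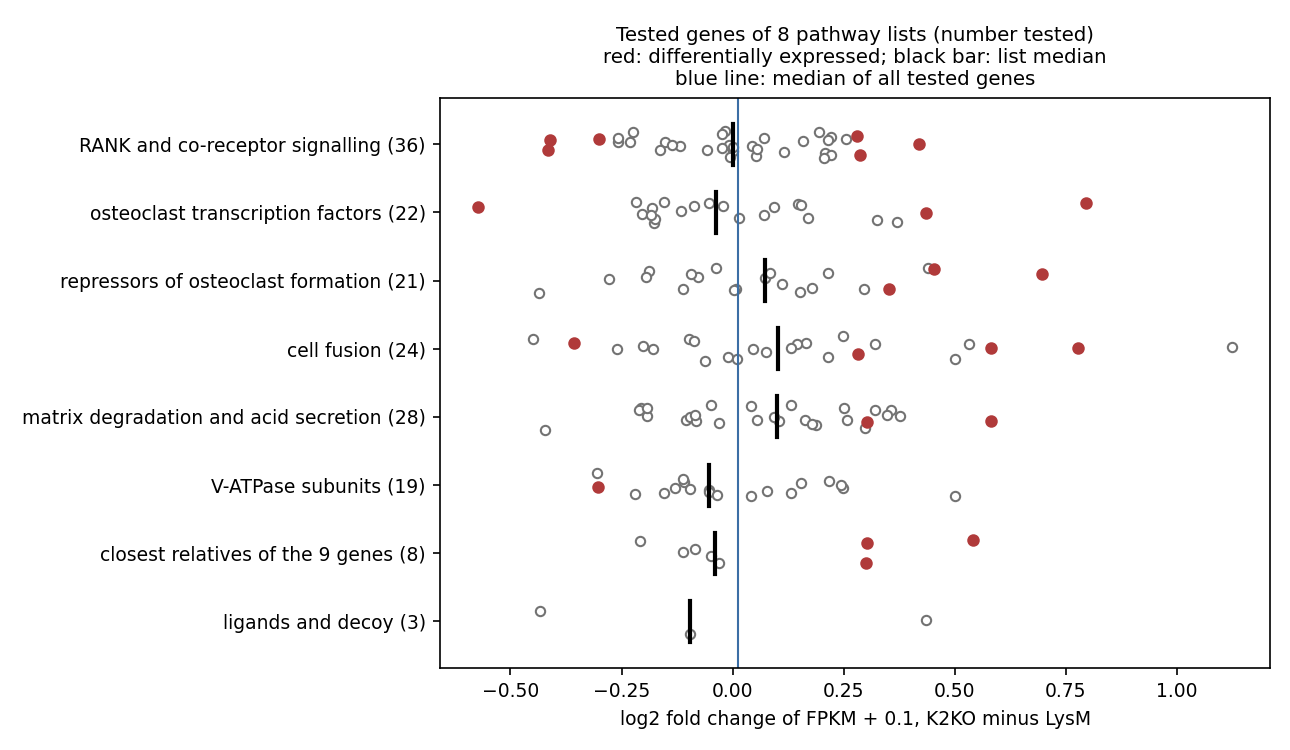
Log2 fold change of FPKM + 0.1 (K2KO minus LysM) of each tested gene in the 8 lists, with red points for differential expression, a black bar at the median of the list and a blue line at the median of all tested genes (0.011). Red points lie on both sides of 0 in the lists of RANK signalling, transcription factors and fusion, and only above 0 in the lists of repressors, matrix degradation and closest relatives.

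Markers of other cells were measured beside these results. Macrophage markers were abundant in every library, with a summed level of 10 genes of 4249 to 4394 FPKM in LysM and 3841 to 4037 FPKM in K2KO libraries, with Cd68 as the most abundant (1834 and 1779 FPKM). As a share of each library's summed FPKM the 10 genes made up 0.791% to 0.854% in LysM and 0.804% to 0.873% in K2KO libraries, ranges that overlapped. Of the 10 tested, 3 passed (30%, beside 18.4% of all tested genes), with Mertk higher, and Aif1 and Lyz2 lower, under the K2KO label. The Cre of both genotypes sits at the Lyz2 locus, so the Lyz2 level is of limited use as a marker here. Of 10 further markers of mature osteoclasts, 7 were tested and none passed, at a summed 411 to 525 FPKM in LysM and 449 to 515 FPKM in K2KO libraries, mostly Tcirg1, which macrophages also express. Car2, the carbonic anhydrase of osteoclasts, was at 0.211 and 0.400 FPKM. All 12 markers of osteoblasts, stroma and fibroblasts were under 1 FPKM, with sums of 0.881 to 1.26 and 1.19 to 2.81 FPKM, and Runx2 was the most abundant (0.605 and 0.920 FPKM).

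Of 10 tested neutrophil markers 1 (10%, beside 18.4% of all tested genes) passed, Camp, which was lower, with sums of 194 to 331 and 187 to 322 FPKM and S100a9 as the most abundant. None of 3 tested dendritic cell markers passed, and their sums, mostly Cd74, were 1431 to 3014 and 1321 to 1965 FPKM. T and NK cell markers summed to 2.01 to 2.98 FPKM in LysM and 5.63 to 6.47 FPKM in K2KO libraries, mostly Cd4, which rose from 1.92 to 5.15 FPKM while the other 6 were under 1 FPKM. Megakaryocyte markers summed to 2.60 to 5.20 and 5.14 to 9.55 FPKM, with Ppbp higher. B cell markers (1.53 to 4.88 and 3.55 to 5.44 FPKM, mostly Cd79b, 1 tested) and endothelial markers (2.41 to 4.11 and 3.09 to 4.59 FPKM, mostly Kdr, 2 tested) had no gene that passed. Erythroid markers (0.122 to 1.19 and 0.721 to 1.57 FPKM, mostly Hba-a1, with Hbb-bt listed at 0) were all under 1 FPKM, so none was tested. The part of these cells in the levels of the 9 genes was not tested.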

How the data were processed

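The authors aligned the reads to mm10 and used Cufflinks to compute the deposited FPKM of each gene, with no pooling of replicates. The paper names TopHat2 as aligner and the submitters' processing notes name STAR, with Cufflinks and Cuffdiff. Versions are not given in the sources used here. RNA came from 1 library kit for stranded total RNA, and the labels and the paper name different RNA isolation kits. Columns were mapped to a genotype, not to a single mouse. Of 23761 listed genes, 23645 were matched to GENCODE release M21 (GRCm38) for position, transcript length and GC content, and 24 names that a spreadsheet had turned into numbers were replaced by the GENCODE name.

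The genotypes were compared with limma 3.58.1 in R 4.3.3 on log2(FPKM + 0.1), by lmFit and eBayes with the trend option and no covariate, after a filter at a mean of 1 FPKM. Depth is unknown and no interval for counting error is given.

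The 9 genes and all lists were chosen with earlier results of these data known, so the lists are not independent evidence. Named genes were the 9, Klf2, the 3 most abundant and the differentially expressed genes of each pathway list, textbook genes of osteoclast formation, the 2 nearest profiles of each tested gene, and the most abundant marker of each cell type with markers listed at 0. Aif1, Lyz2, Mertk, Camp, Dcst1, Csf1, Tnfsf11, Pstpip2 and Gapdh were named after their values were seen. Beyond the genes given in the text, 1 gene under this rule is not reported here. Listed genes not in the table (among them Synb and Ctsb) were not analysed here, and no protein sequence was used here. Alternatives were a pseudocount of 1 or 0.01, a filter of 0.1 or none, quantile or upper-quartile scaling, no intensity trend, ordinary least squares, an absolute log2 fold change over 1, local regression on GC content and length (span 0.3), a block on the column number alone or with that regression, and each library left out in turn with the tested genes kept.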

Additional observations from a re-analysis of the deposited data

Results flagged for a closer look

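Each genotype was searched, for every named gene, for 1 library far from the other 3 (Dixon's test). Of 154 groups examined 6 were found, fewer than the 7.7 that chance gives. None of the 9 osteoclast genes was among them. Csf1r was at 547 FPKM in LysM3 and at 515 to 517 FPKM in the other LysM libraries. Itgav was at 7.22 FPKM in LysM3, below the other LysM libraries (9.70 to 10.1 FPKM). Jund was at 322 FPKM in LysM2, against 434 to 450 FPKM, and at 373 FPKM in K2KO3, where the other K2KO libraries were all at 247 FPKM. Prr14 was at 22.0 FPKM in LysM2, below 24.8 to 25.2 FPKM. Snx10 was at 20.1 FPKM in K2KO3, below 23.1 to 23.6 FPKM and above every LysM library.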

How the results depend on the processing

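Among the 9 genes the number differentially expressed was 0 except with a block on the column number (2, Ctsk at -0.42 and Dcstamp at -0.45, limma adjusted p = 0.0375 and 0.0442, in a fit that called 18.8% of all tested genes) and over libraries left out in turn (0 to 1, with Ctsk at -0.55 without LysM replicate 0). No label gives a pairing by column number. Over the 10920 tested genes, correlations of same-numbered deviations were -0.070 to 0.073, beside -0.14 to 0.18 for other numbers. Of the libraries, 2 of 8 correlated best with their own number. Such correlations show no common pairing but cannot decide whether libraries were paired. Leave-one-out log2 fold changes were -0.55 to -0.32 for Ctsk, -0.63 to -0.23 for Dcstamp, 0.25 to 0.66 for Atp6v0d2, -0.039 to 0.17 for Acp5, -0.025 to 0.043 for Nfatc1 and 0.0045 to 0.11 for Tnfrsf11a. With GC and length correction, with or without the block, Nfatc1 was at -0.011 and Tnfrsf11a at -0.054.

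All tested genes gave 1090 calls without a filter, 746 with ordinary least squares, 110 at an absolute log2 fold change over 1, 1045 with GC and length correction (836 shared with the 2014), 871 with that and the replicate block, and 337 to 2837 with a library left out. The pathway lists gave 11, 8, 0, 13, 10 and 3 to 36 calls in the same order. Fold changes fell with transcript GC content across 10899 genes (Spearman -0.40, genes not being independent), and the cause was not tested.

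Signs of single genes turned under quantile normalization for Atp6v0d1 (0.061), Cd68 (0.29), Fos (0.12), Irf8 (0.062), Junb (0.057), S100a9 (0.081), Sirpa (0.16), Spi1 (0.0036), Tgfb1 (0.066), Trem2 (0.0074), Tyrobp (0.17) and Zfp12 (-0.015), and under upper-quartile scaling for Cd68 (0.0010). With GC and length correction, with or without the replicate block, they turned for Atp6v0d1 (0.0055), Bcl6 (-0.032), Cd68 (0.098), Csf1r (-0.014), Gm20492 (0.084), Junb (0.072), Klf2 (0.048), Mitf (-0.020), Myadm (-0.049), Pip4k2a (-0.023), Sept2 (-0.11) and Tyrobp (0.038). Leave-one-out ranges crossed 0 for Bcl6 (-0.025 to 0.033), Csf1r (-0.063 to 0.044), Fos (-0.23 to 0.034), Gm20492 (-0.30 to 0.060), Myadm (-0.080 to 0.13), Prr14 (-0.040 to 0.031), S100a9 (-0.23 to 0.11), Tcirg1 (-0.018 to 0.12) and Zfp12 (-0.0069 to 0.21).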

Other observations

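Pstpip2, a gene of the fusion list, encodes an actin-associated F-BAR protein of macrophages and osteoclast precursors. It was at 0.5996 FPKM in LysM and 1.42 FPKM in K2KO libraries, a log2 fold change of 1.12 that did not pass (limma adjusted p = 0.0775) and lay between 0.58 and 1.43 over 12 alternatives, of which 2 passed. Csf1, which encodes M-CSF, was under a mean of 1 FPKM and was not tested, at 0.469 and 0.865 FPKM. Among cell type markers, Aif1, a macrophage gene, was at 253 and 156 FPKM (log2 fold change -0.68, limma adjusted p = 0.0496), and Lyz2, at whose locus the Cre of both genotypes sits, was at 18.6 and 13.2 FPKM (log2 fold change -0.49, limma adjusted p = 0.0260). Mertk, a receptor for dying cells, was at 14.2 and 18.3 FPKM (log2 fold change 0.36, limma adjusted p = 0.0285). Camp, a neutrophil granule gene, was at 13.6 and 6.40 FPKM (log2 fold change -1.14, limma adjusted p = 0.0178), Ppbp at 2.03 and 4.30 FPKM (log2 fold change 1.07, limma adjusted p = 0.0291), and Cd4 at 1.92 and 5.15 FPKM (log2 fold change 1.38, limma adjusted p = 4.34e-04). Cd4 passed in 12 of 12 alternatives and without any one library. Of 12 alternatives, Camp passed in 11, Ppbp in 9, Lyz2 and Mertk in 8 and Aif1 in 3, and of 8 fits with a library left out, Camp passed in 5, Ppbp and Lyz2 in 4 and Mertk and Aif1 in 2. With correction for GC content and length, Camp and Cd4 passed and the other 4 did not. The 2 libraries with the highest Atp6v0d2, K2KO1 and K2KO2, also had the highest Mmp12, at 452 and 325 FPKM. This likeness follows largely from choosing Mmp12 for its similar pattern in these 8 libraries, and it was not tested.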
